A study of Mus musculus with 27 samples.

Results

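Type 17 T cells make the cytokines IL-17A and IL-17F, and 9 genes of their program were followed here in CD8 T cells with altered levels of let-7 miRNAs. The members were the cytokine genes Il17a and Il17f, the receptor genes Il23r, Ccr6 and Il1r1, the transcription factor genes Maf, Sox13 and Zbtb16, and the kinase gene Blk. They were taken by symbol from the 35275 genes of the deposited tables, and were chosen by the level of Il17a, which was higher in lin28Tg cells after 12 h of activation. That choice used the 12 h values of lin28Tg cells, so every difference between them and other groups is given below as a description with no test.

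RNA was sequenced from P14 T cells of mouse lymph nodes in 27 libraries, 3 for each of 3 genotypes at each of 3 stages. All P14 cells share 1 transgenic T cell receptor, which sees the gp33 peptide of the virus LCMV. The genotypes were WT P14+, Lin28bTg P14+ (lin28Tg) and Let-7Tg P14+ (let-7Tg), and the study was set up to learn how let-7 shapes the fate of CD8 T cells. Per the study's methods, the P14+ lin28Tg and P14+ let-7Tg mice were kept on a Rag2-/- background, were 6 to 10 weeks old and of both sexes, and drank doxycycline for 4 days, as did the controls. Mice without Rag2 cannot rearrange antigen receptor genes, so they lack B cells and gamma delta T cells of their own but keep myeloid, NK and innate lymphoid cells. The methods name that background for P14+ WT mice as well, in a cross to a Nur77 reporter strain. The promoter of the Lin28b transgene and how naive cells were purified are not given in the sources used here. The let-7g transgene sits at the Col1a1 locus and is induced by doxycycline. Naive cells received no stimulus. The 12 h cells received antibodies to CD3 (2 μg/ml) and CD28 (5 μg/ml) with doxycycline at 2 μg/ml. The day 5 CTLs were made with anti-CD3 (2 μg/ml) and irradiated splenocytes, with IL-2 at 100 U/ml from 48 h and the same dose of doxycycline.

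As background, IL-17A and IL-17F act on epithelial and stromal cells and draw in neutrophils. The program is sustained by IL-23 and IL-1 through Il23r and Il1r1. Ccr6 guides the cells toward its chemokine CCL20, and c-Maf, encoded by Maf, promotes the fate in several T cell lineages. Sox13, Blk and Zbtb16, which encodes PLZF, are known above all from innate-like T cells such as the gamma delta cells that make IL-17. CD8 T cells stimulated without polarizing cytokines are better known for interferon-γ and granzymes. MiRNAs of the let-7 family pair through their seed with sites in 3′ UTRs and lower the RNA and protein, and Lin28 proteins block let-7 maturation.

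The sequence of the miRNA that the let-7Tg mice overexpress is shown because its seed defines the sites searched in the members. In RefSeq sequence of GRCm38.p6, let-7g-5p lies at chr9:106178846-106178867 on the plus strand. The seed, bases 2 to 8, is in capitals.
let-7g-5p: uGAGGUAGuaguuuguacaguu
A DNA match to that seed reads CTACCTC. It was searched, on the transcribed strand, in 1 3′ UTR per gene, that of its longest coding isoform (GENCODE M21, GRCm38). Of the 9 members, 2 held a match (22.2%), against 8.92% of the 20570 genes of the tables with a 3′ UTR. These were Sox13, in exon 14 at chr1:133382956-133382984 on the minus strand, 678 bases past the stop codon, and Zbtb16, in exon 7 at chr9:48655251-48655279 on the minus strand, 1874 bases past it. The match is in capitals.
Sox13: tccccacattgCTACCTCtttgtcagtct
Zbtb16: ttttctaaaagCTACCTCttctgtttgtc
The 3′ UTRs searched ran from 59 bases for Ccr6 to 4316 bases for Maf, with 637 bases for Il17a and 621 for Il17f, neither of which held a match. A match is a description and was not tested as a site.

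Il17a (ENSMUSG00000025929, chr1:20730905-20734496, plus strand) and Il17f (ENSMUSG00000041872, chr1:20777146-20790617, minus strand) are neighbors on chromosome 1 of GRCm38 with 42.6 kb between them. Their promoters are shown because, of the other members, Il17f had the pattern closest to that of Il17a. That is a description, and it rests on the 12 h lin28Tg libraries. RefSeq windows of 300 bases around the start site (GRCm38.p6) were searched on both strands for AGGTCA and TGANTCA, which do not overlap. AGGTCA is a core motif of nuclear receptors. TGANTCA is a looser pattern than the site of AP-1 factors, which has C or G at N, and the match in Il17a has A there. Matches are in capitals.
Il17a, chr1:20730655-20730954, plus strand: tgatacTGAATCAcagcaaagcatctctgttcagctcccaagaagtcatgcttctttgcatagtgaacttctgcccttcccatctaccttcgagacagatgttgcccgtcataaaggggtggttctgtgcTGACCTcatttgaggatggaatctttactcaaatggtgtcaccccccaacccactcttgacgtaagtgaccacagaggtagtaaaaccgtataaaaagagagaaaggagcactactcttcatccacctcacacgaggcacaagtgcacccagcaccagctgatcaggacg
Il17f, chr1:20784221-20784520, minus strand: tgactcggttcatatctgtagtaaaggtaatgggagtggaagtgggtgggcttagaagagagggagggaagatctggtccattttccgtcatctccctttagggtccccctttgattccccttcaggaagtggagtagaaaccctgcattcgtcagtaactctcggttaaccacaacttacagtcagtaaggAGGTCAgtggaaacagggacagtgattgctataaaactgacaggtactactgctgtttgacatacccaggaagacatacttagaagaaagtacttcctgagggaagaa
AGGTCA stood at positions -120 to -115 from the Il17a start, on the opposite strand, and at -58 to -53 from the Il17f start. TGANTCA stood at -244 to -238 in Il17a. Of the 6 members with an entry, Il23r and Ccr6 also held AGGTCA, which 16.3% of all 32851 promoter windows of this length held, against 7.81% for TGANTCA.

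Levels are FPKM, fragments counted on a gene, divided by the length of the gene and by the total of the library, as deposited. Libraries held 13862679 to 23590726 reads, so that 10 reads on a gene of 2 kb stood for 0.212 to 0.361 FPKM, and member values under that rest on few reads. Lin28b was at 56.4 to 67.9 FPKM in naive lin28Tg libraries and at most 0.0587 in naive WT, and stayed between 9.94 and 22.4 in lin28Tg at the later stages. Col1a1, the locus of the let-7g transgene, was at 10.1 to 26.6 FPKM in naive let-7Tg and 1.07 to 1.43 in naive WT. The CD8 T cell list (Cd8a, Cd8b1, Cd3e, Cd3d, Cd3g, Cd5) summed to 2453 to 3390 FPKM in the 9 naive libraries, against 12.9 to 83.5 for the CD4 T cell list. Differences between groups are on the log2 scale of FPKM plus 0.5, after scaling between libraries, with the SE of the model. They understate the change of genes near 0. They were tested with limma at a Benjamini-Hochberg adjusted p of 0.05 over all genes with 10 reads or more in at least 3 libraries. In bulk RNA, fewer cells of a type and less RNA per cell cannot be told apart.

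At 12 h, Il17a and Il17f were the members that set lin28Tg cells apart by the most. Il17a was at 0.0606, 0.0509 and 0 FPKM in the WT libraries, at 6.67, 9.28 and 13.5 in lin28Tg and at 0.108, 0 and 0 in let-7Tg. The 3 lin28Tg libraries lay far above the other 6, in each of which Il17a had 2 reads or fewer. The lin28Tg libraries held 579 reads of Il17a in all and the WT and let-7Tg libraries 2 each, those of let-7Tg both in replicate 1. On the log2 scale lin28Tg was 4.22 ± 0.23 (SE, n = 3) above WT. Il17f was at 1.51, 0.373 and 0.399 FPKM in WT, at 12.7, 16.6 and 33.3 in lin28Tg and at 0.316, 0.0820 and 0.155 in let-7Tg. The lin28Tg values again lay above all others, and both cytokines were lowest in replicate 1 and highest in replicate 3 of lin28Tg. The log2 difference of Il17f was 4.08 ± 0.39 from WT and 4.87 ± 0.39 from let-7Tg.

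The receptor, kinase and factor genes were at 3.26 FPKM or below in every 12 h library. Il23r, whose protein binds IL-23, was at 0.485, 0.878 and 2.20 FPKM in lin28Tg, at 0.142, 0 and 0 in WT and at 0.0760, 0.158 and 0 in let-7Tg. Ccr6 was at 1.20, 2.14 and 3.26 FPKM in lin28Tg, at 0.0990, 0.208 and 0.223 in WT and at 0.0880, 0.640 and 0.130 in let-7Tg. Il1r1, the signaling receptor of IL-1, was at 0.544 to 0.939 FPKM in lin28Tg and at 0.0998 or below in the other 6 libraries. The lin28Tg libraries of these 3 receptor genes did not overlap those of WT or let-7Tg. Sox13 was at 2.32, 1.58 and 2.68 FPKM in lin28Tg, at 0.597, 0.886 and 0.947 in WT and at 0.437, 1.17 and 0.829 in let-7Tg, also with no overlap. Maf differed in that let-7Tg reached the lin28Tg range: it was at 0.543, 0.838 and 0.706 FPKM in lin28Tg, at 0.237, 0.999 and 0.298 in let-7Tg and at 0.0444, 0.0872 and 0.0665 in WT. Blk was at 0.179 to 0.377 FPKM in lin28Tg and Zbtb16 at 0.0747 to 0.127, and neither had reads enough for the model. For all 9 members every lin28Tg library lay above every WT library, as it did for 19.7% of all 12301 genes tested in this contrast, of which 6.45% were called higher in lin28Tg. Since this contrast chose the members nothing is read from the comparison. Il17a, Il23r and Il1r1 passed the read minimum through the lin28Tg libraries alone, and Il17f and Ccr6 only with them.

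**Figure D1:**
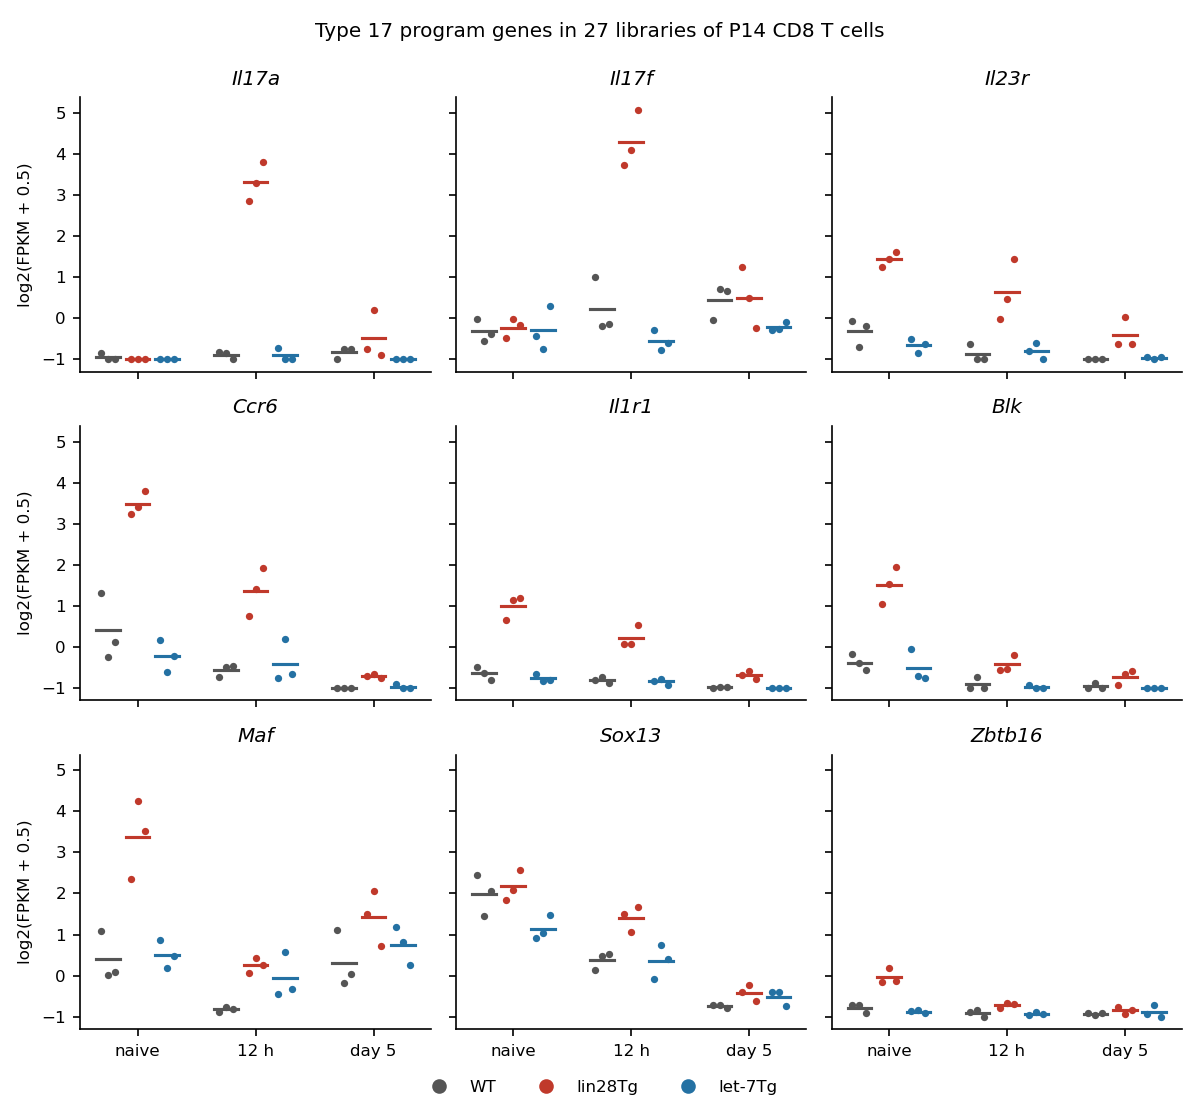
Levels of the 9 members in each library, on a log2 axis of FPKM plus 0.5, by stage and genotype. Points are libraries and bars are means of 3. Il17a and Il17f stand high only in the lin28Tg libraries of 12 h, at 6.67 to 13.5 and 12.7 to 33.3 FPKM, whereas Il23r, Ccr6, Il1r1, Maf and Blk are highest in naive lin28Tg cells.

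In the order of group means, Il17a was highest in lin28Tg at 12 h, at 9.83 ± 3.47 FPKM (SD, n = 3), followed by lin28Tg at day 5, at 0.259 ± 0.339. The day 5 mean came mostly from 1 library with 16 reads, and its spread reached the 7 groups below, all at 0.0611 FPKM or less. Il17f was highest in the same group at 20.9 ± 10.9 FPKM. Next came day 5 lin28Tg at 1.04 ± 0.784, day 5 WT at 0.894 ± 0.370 and 12 h WT at 0.760 ± 0.648, which did not differ beyond their spread. Ccr6 had another order, with naive lin28Tg first at 10.8 ± 2.33 FPKM, followed by 12 h lin28Tg at 2.20 ± 1.03 and naive WT at 0.977 ± 0.888. Naive lin28Tg stood clear of the rest.

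Genes with a pattern close to that of Il17a were ranked by Pearson correlation over the 27 libraries among 14637 genes. The nearest outside the members were Il22 (r = 0.975), Il23a (0.968), Wnt3 (0.963), Msi1 (0.931) and Galnt14 (0.923). Il17f had r = 0.954, rank 4 of all genes. The other members were far lower, from 0.469 for Il23r, 0.433 for Il1r1 and 0.304 for Ccr6 to -0.08 for Maf. These values are descriptions. The libraries of 1 group carry nearly all the Il17a reads, so any gene high in those 3 libraries alone scores well. Il22, which encodes another cytokine of type 17 cells, was at 6.12, 11.7 and 21 FPKM in lin28Tg at 12 h, at 0.639, 0.161 and 0.0574 in WT and at 0.170, 0.118 and 0 in let-7Tg. Like Il17a and Il17f it was lowest in replicate 1 and highest in replicate 3 of lin28Tg. Wnt3, Msi1 and Galnt14 were below 1 FPKM even there, with means of 0.311, 0.901 and 0.366, and Il23a was at 2.10.

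In naive cells, before any stimulus, the cytokine genes were at or near 0 but the receptor genes of the program were already higher in lin28Tg. Il17a had 1 read in all 9 naive libraries. In lin28Tg it had none, which allows a level of up to 0.0447 FPKM (3 reads over the 3 libraries). Il17f was at 0.177 to 0.476 FPKM in WT, 0.212 to 0.477 in lin28Tg and 0.0891 to 0.722 in let-7Tg, with full overlap and too few reads for a test. Of the 7 members with enough reads, 6 were higher in lin28Tg than in WT, where 20.1% of all 13470 genes tested were. Il23r, Blk and Zbtb16 passed the minimum only with the lin28Tg libraries, where they were high, so that the count is an account of the members and no support. Ccr6, Il1r1, Maf and Sox13 passed it without them, and 3 of these 4 were called. Under upper quartile scaling the share of calls that were higher in lin28Tg went from 60.5% to 77.9% over all genes, and the same 6 members were called.

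Ccr6 differed the most. It was at 1.99, 0.346 and 0.593 FPKM in naive WT, at 8.93, 10.0 and 13.4 in lin28Tg and at 0.630, 0.149 and 0.352 in let-7Tg. Every lin28Tg library lay above the other 6, and WT replicate 1 stood above the other WT libraries. The log2 difference of lin28Tg from WT was 3.06 ± 0.37 (limma, Benjamini-Hochberg adjusted p = 5.16e-04). Il23r was at 0.459, 0.114 and 0.370 FPKM in WT, at 1.88, 2.23 and 2.56 in lin28Tg and at 0.207, 0.0572 and 0.145 in let-7Tg. The lin28Tg libraries were again clear of the rest, by 1.75 ± 0.19 from WT. Il23r passed the read minimum only with the lin28Tg libraries, so no p is given. Il1r1 was at 0.212, 0.148 and 0.0740 FPKM in WT, at 1.08, 1.70 and 1.77 in lin28Tg and at 0.135, 0.0595 and 0.0754 in let-7Tg. It rose by 1.63 ± 0.17 over WT with no overlap (adjusted p = 2.47e-04 by limma).

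Among the kinase and transcription factor genes, Maf showed the widest spread. It was at 1.62, 0.517 and 0.561 FPKM in naive WT, at 4.59, 18.7 and 10.9 in lin28Tg and at 1.33, 0.639 and 0.888 in let-7Tg. Values in lin28Tg were all above the rest but differed among themselves by more than those of any other member called at this stage. The difference from WT was 2.96 ± 0.45 (adjusted p = 0.00168 by limma). Blk, a kinase of the Src family, was at 0.385, 0.258 and 0.172 FPKM in WT, at 1.55, 2.40 and 3.35 in lin28Tg and at 0.469, 0.115 and 0.0874 in let-7Tg. Its lin28Tg libraries lay above the other 6, and the difference from WT was 1.88 ± 0.26. Like Il23r it passed the read minimum only with the lin28Tg libraries, so no p is given. Zbtb16 was at 0.398, 0.632 and 0.416 FPKM in lin28Tg and at 0.112 or below in the other 6 libraries, higher than WT by 0.74 ± 0.15. It had reads enough in lin28Tg alone, so no p is given. Sox13 stood apart from these. It was the highest member in naive WT, at 4.93, 2.24 and 3.68 FPKM, and overlapped with lin28Tg at 3.10, 3.78 and 5.49. The difference was 0.16 ± 0.27 (adjusted p = 0.683 by limma), and its sign turned when WT replicate 2 or lin28Tg replicate 3 was left out.

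Against let-7Tg, all 7 members with enough reads were higher in naive lin28Tg, among them the 4 that passed without the lin28Tg libraries, where 24.1% of all genes were called higher, with upper quartile scaling taking the share of higher calls from 55.6% to 72.2%. This comparison shares the lin28Tg libraries with the one before it. Differences were 3.71 ± 0.37 for Ccr6, 2.87 ± 0.45 for Maf, 2.10 ± 0.19 for Il23r, 2.01 ± 0.26 for Blk, 1.76 ± 0.17 for Il1r1 and 0.84 ± 0.15 for Zbtb16. Sox13 joined them at 1.05 ± 0.27 (adjusted p = 0.0122 by limma), since let-7Tg libraries, at 1.37, 1.55 and 2.29 FPKM, lay below all 3 of lin28Tg.

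Between naive let-7Tg and WT, limma called 0 of the 7 members, against 0.943% of all genes, with 1 at an unadjusted p under 0.05 and 0 by limma voom on the recovered reads. The one was Sox13, at -0.89 ± 0.27 on the log2 scale (adjusted p = 0.172 by limma). Its let-7Tg and WT libraries overlapped narrowly, the highest let-7Tg library being at 2.29 FPKM and the lowest WT library at 2.24. Ccr6 was at -0.65 ± 0.37 and Il23r at -0.35 ± 0.19. Both lay within about 2 SE of 0. Il23r, Blk and Zbtb16 had passed the read minimum only with the lin28Tg libraries, so for them the missing call says little.

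**Figure D2:**
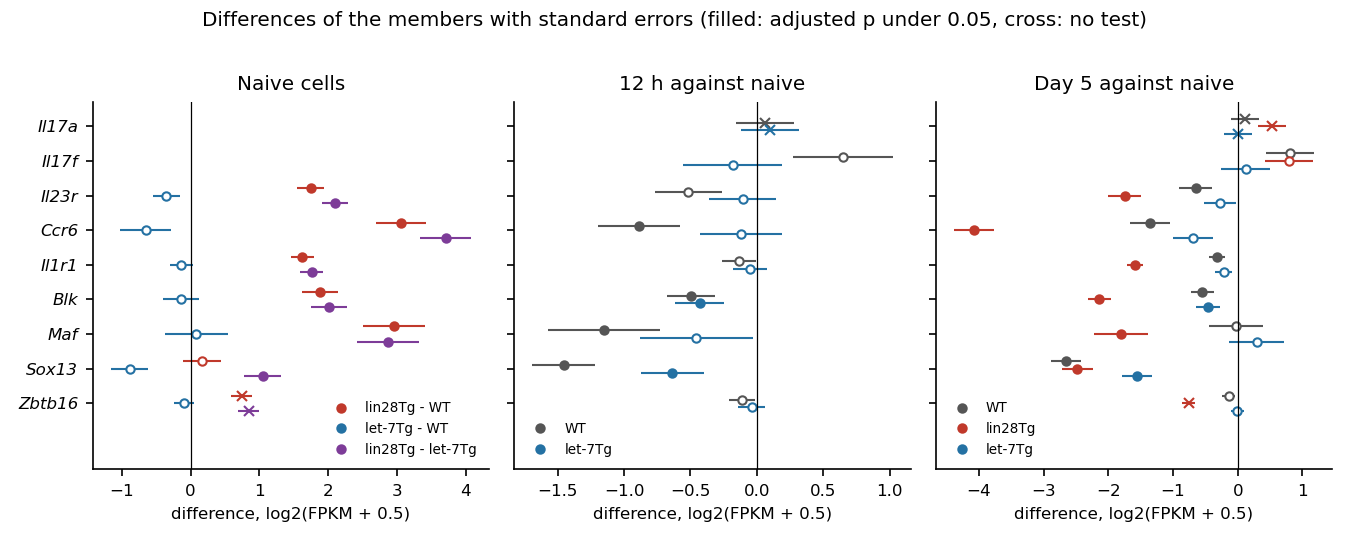
Log2 differences of the members, on FPKM plus 0.5, with SE. The panels show naive comparisons between genotypes, WT and let-7Tg at 12 h against naive, and each genotype at day 5 against naive, and filled points have an adjusted p under 0.05 by limma. Crosses mark Il17a and Zbtb16 where they passed the read minimum through lin28Tg libraries, with no test. Il23r and Blk also passed it only with lin28Tg libraries. In comparisons with lin28Tg their filled points are not read as a test. Ccr6 is the farthest point in naive lin28Tg against WT, at 3.06, and again in lin28Tg at day 5 against naive, at -4.08.

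Other genes of the pathway were taken from 5 lists. In naive lin28Tg against WT the receptor list had 3 of 11 tested genes higher and 4 lower (median log2 difference -0.04, against -0.01 over all genes), where 20.1% of all genes were higher and 13.1% lower. The signaling list had 2 of 7 higher and 2 lower (median 0.14), and the transcription factor list 2 of 7 higher and 1 lower (median 0.17). Of 9 genes known to restrain the fate, 2 were higher and 5 lower (median -0.32). Only 1 of the 5 genes of the list of other cytokines and a chemokine had enough reads, and it was not called. Il6st, the shared signaling receptor of the IL-6 family, went from 212 ± 17.1 FPKM in WT to 79.1 ± 1.68 in lin28Tg, a log2 difference of -1.45 ± 0.08 (adjusted p = 1.61e-05 by limma). Smad3, which carries TGF-β signals, was higher by 0.59 ± 0.06 and Tgfbr1, a TGF-β receptor, by 0.69 ± 0.07 (adjusted p = 1.60e-04 and 2.53e-04 by limma). These 3 genes had the smallest adjusted p of the lists. For let-7Tg against WT in naive cells limma called 0 of the 35 genes tested in the 5 lists, with 6 at an unadjusted p under 0.05 and 0 by limma voom.

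At 12 h the log2 difference of lin28Tg from WT was 4.00 ± 0.40 for Il22 and -1.08 ± 0.09 for Il6st. As for the members, no test is given for this contrast.

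**Figure D3:**
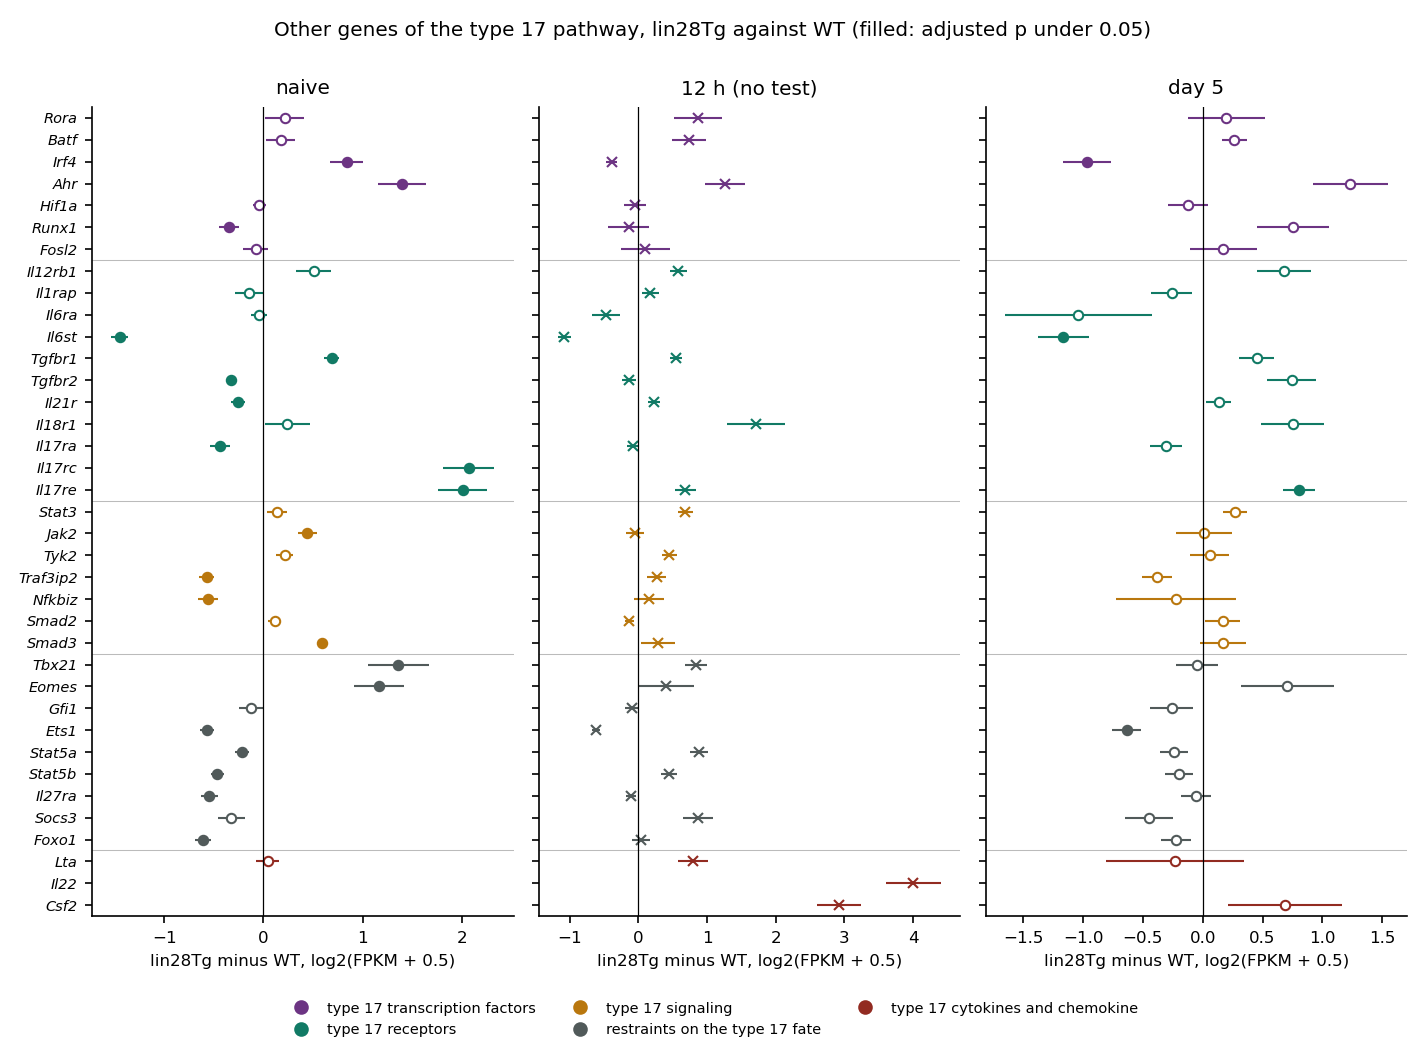
Log2 differences (FPKM plus 0.5) of lin28Tg from WT with SE for genes of the 5 pathway lists, in naive cells, at 12 h and at day 5. Filled points have an adjusted p under 0.05 by limma, and crosses at 12 h carry no test. Il6st lies below 0 at all 3 stages, at -1.45, -1.08 and -1.17.

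Markers of other cell types were also higher in naive lin28Tg. The gamma delta T cell list, of which 13 of 14 genes were measured, summed to 403 to 480 FPKM in lin28Tg, 105 to 185 in WT and 124 to 144 in let-7Tg, and 6 of its 10 tested genes were called higher in lin28Tg than in WT, against 20.1% of all genes. The comparison with let-7Tg was less one-sided, with calls for 3 of the 10 upward and for 2 downward. The defining genes Cd163l1 and 5830411N06Rik made up most of the gamma delta sum in every naive lin28Tg library. The sum therefore says little about the other genes of the list. These defining genes were at 84.8 to 127 and 233 to 324 FPKM in lin28Tg, against 10.8 to 27.2 and 34.9 to 85.0 in WT. None of the defining genes measured was at 0 in naive lin28Tg. The list of group 3 innate lymphoid cells, which holds Il22, summed to 138 to 261 FPKM in lin28Tg and 43.7 to 66.9 in WT, with 7 of 8 tested genes called higher and Il22 at 0 in WT. The myeloid and dendritic cell list was at 957, 3096 and 1738 FPKM in lin28Tg and 252 to 433 in WT, with 11 of 11 called higher. The NK list, at 158 to 586 FPKM against 52.9 to 104, had 4 of 5 higher, and the stromal list, at 3.87 to 12.3 against 1.28 to 1.73, had 5 of 6.

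The CD4 T cell list was at 24.1, 83.5 and 54.2 FPKM in lin28Tg and 12.9 to 23.7 in WT, with 2 of 4 genes higher and 2 lower. Among the lin28Tg libraries, Maf and Zbtb16 were lowest in replicate 1 and highest in replicate 2, as were the myeloid, NK, CD4, innate lymphoid, stromal and invariant T cell lists. Ccr6, Il23r, Il1r1 and Blk were also lowest in replicate 1 but highest in replicate 3, Il1r1 by little, and the gamma delta list was highest in replicate 1. In WT, all 7 tested members were highest in replicate 1, as were the gamma delta, innate lymphoid, myeloid, NK and CD4 sums. The B cell list was at 365 to 454 FPKM in lin28Tg and 418 to 449 in WT, with 4 of 6 tested genes higher and 1 lower. The invariant T cell list was at 56.8 to 82.9 FPKM in lin28Tg and 49.9 to 53.5 in WT, with Trav11 at 0 in lin28Tg and Trav1 at 0 in WT. The part of these cells in the member differences was not tested.

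At 12 h the marker sums were lower and closer together. The gamma delta list was at 15.2 to 26.3 FPKM in lin28Tg and 12.5 to 15.8 in WT, with Tcrg-V6 at 0 in every library. Its defining genes Cd163l1 and 5830411N06Rik still lay above WT. They were at 0.667 to 1.45 and 2.48 to 8.17 FPKM, against 0.129 to 0.190 and 0.456 to 1.67. The innate lymphoid list was at 74.8 to 83.2 FPKM in lin28Tg and 24.4 to 50.1 in WT, and the myeloid list at 69.5 to 125 and 31.7 to 71.6. In lin28Tg replicates 1, 2 and 3 the innate lymphoid list was at 74.8, 80.3 and 83.2 FPKM. Il17a, Il17f and Il22 rose in the same order, and Il22 is part of that list. The gamma delta list was highest in replicate 1, and the myeloid list was lowest in replicate 3. The part of these cells in the 12 h levels was not tested.

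**Figure D4:**
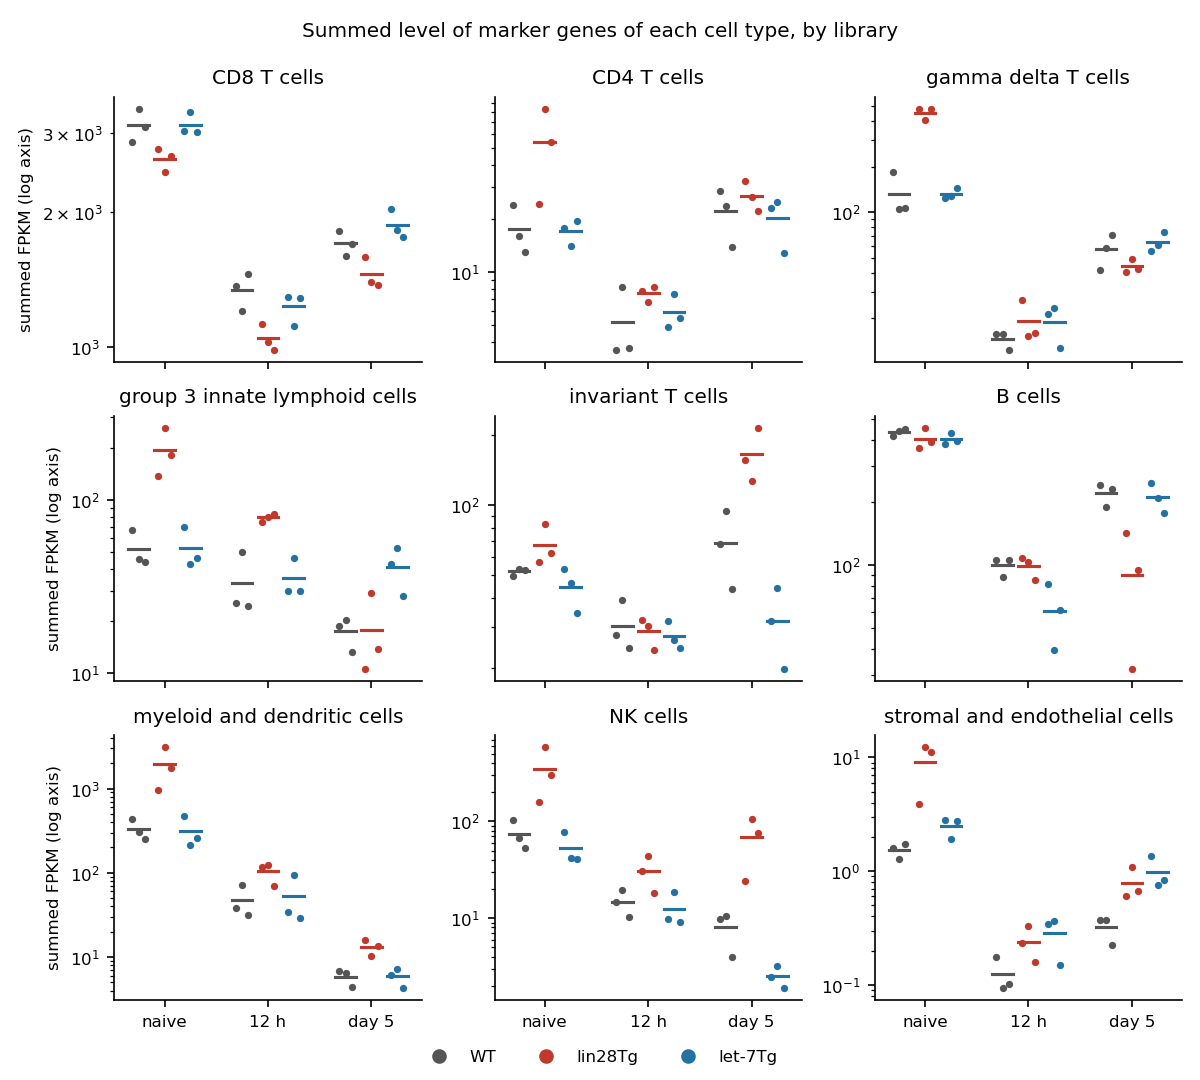
Summed FPKM of 9 marker lists in each library, on a log axis, by stage and genotype, with points for libraries. In naive cells the lin28Tg libraries lie above WT for the gamma delta, innate lymphoid, myeloid, NK, stromal, CD4 and invariant T cell lists, with myeloid sums of 957 to 3096 against 252 to 433 FPKM, and below WT for the CD8 list, at 2453 to 2752 against 2863 to 3390.

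At 12 h limma called 0 of 7 members between let-7Tg and WT, against 3.33% of all genes, with 1 at an unadjusted p under 0.05 and 0 by limma voom. This comparison shares its WT libraries with the one that chose the members. The one was Maf, at 0.75 ± 0.24 (adjusted p = 0.111 by limma), with 114 reads against 15 and all 3 let-7Tg libraries above all 3 of WT. Same-numbered libraries of these 2 genotypes deviated together, and with the replicate block Maf was called by limma voom (adjusted p = 0.0324) but not by limma (adjusted p = 0.0813), while calls over all genes went from 410 to 239 by limma. Il17f, at -0.79 ± 0.39, had all let-7Tg libraries below all WT libraries (adjusted p = 0.282 by limma). Il17a had 2 reads in each group, a ratio of 0.985 with an exact interval of 0.0714 to 13.6, so that no difference could be seen at this depth. Il17a, Il17f, Il23r, Ccr6 and Il1r1 passed the read minimum only with the lin28Tg libraries. They had few reads in both groups compared here, so for them the missing call says little. In the pathway lists the restraint list had 1 of 9 genes higher and 1 lower, Gfi1 at 0.42 and Stat5a at -0.63 (adjusted p = 0.0499 and 0.0412 by limma), and limma called no gene of the other 4 lists. Over all 5 lists that was 2 of 36 genes, with 14 at an unadjusted p under 0.05 and 3 called by limma voom.

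At day 5 only Il17f, Maf and Sox13 had reads enough for a test, and the other 6 members were at 0.649 FPKM or below in every library. Between lin28Tg and WT limma called 0 of these 3, against 4.20% of all genes, with 2 at an unadjusted p under 0.05 and 0 by limma voom. Il17f was at 0.467, 1.13 and 1.09 FPKM in WT, at 1.88, 0.891 and 0.338 in lin28Tg and at 0.320, 0.332 and 0.443 in let-7Tg. WT and lin28Tg overlapped throughout, with a difference of 0.08 ± 0.35 (adjusted p = 0.932 by limma). Maf was at 1.65, 0.376 and 0.521 FPKM in WT and at 2.31, 3.70 and 1.15 in lin28Tg, which overlapped at their edges (1.15 ± 0.43, adjusted p = 0.177 by limma). Day 5 libraries of the same number deviated together across genotypes. With the replicate number as a block limma also called 0 of the 3, whereas its calls over all genes went from 551 to 1744. Limma voom with the block called Maf. Sox13 was at 0.257, 0.352 and 0.156 FPKM in lin28Tg, above the 0.0805 to 0.106 of WT (0.35 ± 0.15, adjusted p = 0.233 by limma). Between let-7Tg and WT limma called 0 of 3, against 0.929% of all genes, and between lin28Tg and let-7Tg 0 of 3, against 21.7%, with 0 at an unadjusted p under 0.05 and 0 by limma voom in each. With the block, calls over all genes went from 122 to 513 and from 2846 to 4704, and none of the 3 members was among them.

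Traces of the receptor genes were left in lin28Tg CTLs. Il23r was at 0.146, 0.515 and 0.145 FPKM in lin28Tg and at 0 in all 3 WT libraries, where 3 reads over the group would be 0.0215 FPKM. With 42 reads against none, 27 of them in replicate 2, it was 12.5-fold above a floor of 3 reads over the WT group. Ccr6 was at 0.109, 0.133 and 0.0943 FPKM against 0 in all WT libraries, 2.99-fold above the same floor from 10 reads. Il1r1 was at 0.119, 0.169 and 0.0848 FPKM against at most 0.0113, a ratio of 16.6 in reads (exact interval 4.28 to 142). Blk was at 0.0210, 0.134 and 0.164 FPKM against at most 0.0429, where the groups overlapped. Il17a was at 0.0887, 0.649 and 0.0385 FPKM in lin28Tg, 16 of its 19 reads being in replicate 2, against 0 to 0.0926 in WT. Zbtb16 was at 0.104 FPKM or below in all 9 libraries. These members fell under the read minimum in the day 5 model. The folds of Il23r and Ccr6 leave out the counting error of the lin28Tg reads, and the interval of Il1r1 covers counting error only. With no read minimum, limma tested all 9 members and called 2, where 323 of all 21613 genes were called. These were Ccr6 at 0.30 ± 0.04 and Il1r1 at 0.31 ± 0.05 (adjusted p = 0.0174 and 0.0314 by limma), with 6 members at an unadjusted p under 0.05. The calls rest on 10 reads against 0 for Ccr6 and 37 against 2 for Il1r1. The receptor list had 1 of 10 genes higher and 1 lower, Il17re by 0.81 and Il6st by -1.17 (adjusted p = 0.0149 and 0.0213 by limma). The factor list had 0 of 7 higher and 1 lower, Irf4, needed for effector differentiation, by -0.97 (adjusted p = 0.0336 by limma). The restraint list had 1 of 9 lower, Ets1, and the signaling and cytokine lists no call, which made 4 of 35 genes with 14 at an unadjusted p under 0.05 and 4 called by limma voom. For let-7Tg against WT limma called 0 of 35, with 4 at an unadjusted p under 0.05 and 0 by limma voom. The day 5 NK list was at 24.2 to 107 FPKM in lin28Tg against 3.94 to 10.5 in WT, the invariant T cell list at 127 to 215 against 43.9 to 94.3, with Trav1 and Trav11 at 0, and the gamma delta list at 40.2 to 49.2 against 41.9 to 71.2. Of 8 tested genes of the gamma delta list 2 were called higher than in WT and 1 lower, against 4.20% of all genes in either direction. Its defining genes Cd163l1 and 5830411N06Rik lay above WT, at 5.41 to 7.24 and 8.79 to 9.21 FPKM, against 1.43 to 3.00 and 0.485 to 1.07. The part of these cells was not tested.

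Stages were compared in 1 model of all 27 libraries. Set against the share of all genes called lower, the member counts were not far above it in WT and below it in let-7Tg. The lin28Tg count holds members that passed the read minimum only with lin28Tg libraries, where they were high in naive cells. It is given as a description and nothing is read from it. Stage cannot be told apart from the culture and the deposited table. In WT cells 4 of 9 members were lower at 12 h than in naive cells, and 35.9% of all 14637 genes were, while 5 of 9 were lower at day 5 against 32.4%. Sox13 had the largest fall, at -1.45 ± 0.24 on the log2 scale at 12 h and -2.65 ± 0.24 at day 5 (adjusted p = 1.01e-05 and 1.99e-09 by limma). Ccr6 was lower at both stages, at -0.89 ± 0.31 and -1.35 ± 0.31 (adjusted p = 0.0144 and 6.19e-04 by limma), as was Blk at -0.50 ± 0.18 and -0.55 ± 0.18. Maf was lower at 12 h, at -1.15 ± 0.42, but not at day 5, at -0.03 ± 0.42, and Il23r and Il1r1 were lower at day 5 alone, at -0.65 ± 0.25 and -0.32 ± 0.13. Much of this rested on the first naive WT library. Without it Sox13 alone of these was called at 12 h, and Sox13 and Ccr6 at day 5. Blk at 12 h, and Il23r and Il1r1 at day 5, also lost the call with the replicate block (adjusted p = 0.0511, 0.0606 and 0.164 by limma). The 12 h comparison shares its WT libraries with the one that chose the members, and upper quartile scaling moved the median of all genes from -0.05 to -0.25 there, and the share of calls that were higher from 48.9% to 37.2%.

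The pathway lists changed in both directions in WT cells. At 12 h the receptor list had 1 of 11 genes higher and 9 lower, the factor list 4 of 7 higher and 3 lower, the signaling list 2 of 7 higher and 3 lower, the restraint list 3 of 9 higher and 5 lower, and the cytokine list 2 of 3 higher. Over all genes 34.4% were higher and 35.9% lower, and several of these counts are close to that.

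In let-7Tg cells 2 of 9 members were lower at 12 h, against 34.9% of all genes, and the same 2 at day 5, against 30.8%. They were Sox13, at -0.64 ± 0.24 and -1.56 ± 0.24, and Blk, at -0.43 ± 0.18 and -0.46 ± 0.18 (adjusted p between 6.10e-06 and 0.0407 by limma). Upper quartile scaling moved the median of all genes at 12 h from -0.04 to -0.19. Without the first 12 h let-7Tg library neither was called at 12 h. With the block Blk lost both calls (adjusted p = 0.0801 and 0.0623 by limma), and Ccr6 was called lower at both stages (adjusted p = 0.0392 and 0.0182 by limma).

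In lin28Tg cells 6 of the 7 members other than Il17a and Zbtb16 were lower at day 5 than in naive cells, against 34.9% of all genes. Markers of other cell types were lower in the same comparison, the myeloid list in 11 of 11 genes (median -5.47), the B cell list in 6 of 7, the NK list in 4 of 5, the stromal list in 5 of 6, the gamma delta list in 7 of 10 and the innate lymphoid list in 6 of 9, and their part was not tested. Upper quartile scaling moved the median of all genes from -0.03 to -0.22 and the share of calls that were higher from 48.6% to 35.7%. The log2 differences were -4.08 for Ccr6, -2.48 for Sox13, -1.80 for Maf and -1.59 for Il1r1 (adjusted p between 1.49e-10 and 6.84e-04 by limma). Blk, at -2.14, and Il23r, at -1.75, had passed the read minimum only with lin28Tg libraries. No p is given for them, and their part of the count is a description. In WT cells Sox13 was at -2.65, and its change differed between the genotypes by 0.17 ± 0.34 (adjusted p = 0.815 by limma). Zbtb16 was at -0.76 and Il17a at 0.53 ± 0.22, with no test, since they had entered the model through lin28Tg libraries, those of 12 h for Il17a. The Il17a value rested on replicate 2, and without it the difference was 0.18. The step from naive to 12 h in lin28Tg used the libraries that chose the members and was not tested. Il17a went from 0 reads to 579 and Il17f from 17 to 841. The mean of Ccr6 went the other way, from 10.8 to 2.20 FPKM.

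The difference between lin28Tg and WT was smaller at day 5 than in naive cells for 6 of 9 members, by a test of the interaction of genotype and stage, where 11.8% of all genes had a lower difference. The share of calls that were higher was 21.9%, and 11.5% with upper quartile scaling. These were Ccr6, Maf, Blk, Il1r1, Il23r and Zbtb16, with values from -2.73 ± 0.44 for Ccr6 to -0.62 ± 0.14 for Zbtb16. Blk, Il23r and Zbtb16 had passed the read minimum only with lin28Tg libraries, so their part of the count is a description. Markers of other cell types also had a lower difference at day 5, with 8 of 11 genes of the myeloid list (median -2.34), 5 of 6 of the stromal, 4 of 9 of the innate lymphoid, 3 of 7 of the B cell and 2 of 10 of the gamma delta list. Their part was not tested. On the log2 scale with 0.5 FPKM added, a fold difference between levels near 0 is small by construction. Limma voom on the recovered reads, which weighs reads in place of adding 0.5 FPKM, called 0 of the 6 and turned the sign of Il23r and Il1r1. For let-7Tg against WT, limma called 0 of 9 members in either interaction, that of day 5 or that of 12 h, with 1 at an unadjusted p under 0.05 in each and 0 by limma voom, against 0.424% and 0.0820% of all genes.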

How the data were processed

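RNA of 27 libraries, 3 per genotype and stage, was measured, and groups were taken from the sample labels. The values are FPKM deposited by the authors in 1 table per stage, which they made from HTSeq counts divided by gene length and library total. The submitters' processing notes name Bowtie2 2.0.6, TopHat2 2.0.9, HTSeq 0.6.1 and GRCm38 (mm10). The group means, log2 fold changes and adjusted p-values in the same tables are the authors' own comparisons and were not used. Because the deposited unit is FPKM, count models were not used as the main test. All 462839 values above 0 came out as whole reads (100%, tolerance 0.05 reads), and depth, read minimums and exact intervals come from these reads. Replicates of a group differed by more than counting noise. No column was left without a sample.

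FPKM were scaled between libraries by the trimmed mean method (TMM, trimming 30% by ratio and 5% by level), and log2 of FPKM plus 0.5 was fitted with limma 3.58.1 (R 4.3.3) with an intensity trend. Each stage was fitted on its 9 libraries, and stage comparisons and interactions on all 27. Genes with 10 reads or more in at least 3 libraries were tested, with Benjamini-Hochberg adjustment over all of them. The fits were tested on simulated data with known changes. Of 100 genes changed 2-fold, 35 were recovered in naive cells, 48 at 12 h and 42 at day 5. Of 100 changed 4-fold, 91, 93 and 97 were recovered. The changed genes were drawn from all tested genes with a fixed dispersion, so for members near 0 FPKM the recovery can be lower. A gene that was not called may therefore still differ by 2-fold, and one near 0 FPKM by more. The labels call the replicates separate samples, and p-values measure the spread between these libraries only.

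Replicate numbers were checked for pairing. At day 5 all 9 same-numbered pairs of libraries from different genotypes had correlated deviations from their group means (r of 0.248 to 0.708). In naive cells 2 of 9 had r over 0.1 and at 12 h 3 of 9. These were all between let-7Tg and WT, with r of 0.212 and 0.463 in naive cells and 0.234 to 0.542 at 12 h. Among pairs with different numbers, r was over 0.1 in 1 of 18 at day 5, 8 of 18 at 12 h and 4 of 18 in naive cells. Numbers thus pair libraries at day 5, and may pair those of let-7Tg and WT at 12 h. Alternatives were another pseudocount, filter, scaling, sample set, replicate block and leaving out each library. Limma voom on the recovered reads was added after seeing the data. The members, gene lists and tests were chosen with earlier results of these data known. From the pathway lists the text names, per comparison, up to 3 called genes with the smallest adjusted p, and Il22 as a gene most like Il17a. One gene is left out of the lists and is not reported here. Trdc and Ighd were not matched in the tables. Sequences are from RefSeq and GENCODE M21. Plots and read recovery used Python 3.11.15 with numpy 2.4.6, pandas 2.3.3, scipy 1.17.1 and matplotlib 3.10.9.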

Additional observations from a re-analysis of the deposited data

Results flagged for a closer look

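For 6 members the difference between lin28Tg and WT was not the same in naive cells and at day 5, by limma's test of the interaction of genotype and stage with Benjamini-Hochberg adjustment. The difference was lower at day 5 by -2.73 ± 0.44 for Ccr6 (adjusted p = 1.95e-04 by limma), -1.27 ± 0.18 for Il1r1 (adjusted p = 5.73e-05 by limma) and -1.78 ± 0.60 for Maf (adjusted p = 0.0479 by limma). It was lower by -1.59 ± 0.26 for Blk, -1.10 ± 0.36 for Il23r and -0.62 ± 0.14 for Zbtb16. With the replicate block Il23r lost the call and the other 5 remained. Il23r and Maf also lost it with 0.1 FPKM added in place of 0.5 (adjusted p = 0.115 for Maf by limma). Limma voom on the recovered reads, with or without the block, called 0 of the 6 and turned the sign of Il23r and Il1r1. Blk, Il23r and Zbtb16 had passed the read minimum only with lin28Tg libraries, so no p is given for them and their part of the count is a description. In reads, Il23r was 316 against 35 in naive cells and 42 against 0 at day 5, Ccr6 was 874 against 64 and 10 against 0, and Il1r1 was 420 against 31 and 37 against 2, lin28Tg first.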

How the results depend on the processing

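The 12 h Il17a difference kept its direction under every alternative run, but its size follows the value added before the log. Against WT it was 6.15 with 0.1 FPKM added, 3.34 with 1 FPKM, 7.37 with limma voom and 7.34 with voom and the replicate block, and against let-7Tg 6.23, 3.34, 7.70 and 7.67. Without 1 library it was 4.17 to 4.25 against WT and 4.16 to 4.31 against let-7Tg, over 3 fits each, since without a lin28Tg library Il17a fell under the read minimum.

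The replicate block in limma changed no other member call than those given above, Il17a set aside. In naive cells, leaving out 1 library gave 5 to 6 members called in lin28Tg against WT, 6 to 7 against let-7Tg and 0 to 0 between let-7Tg and WT. At 12 h between let-7Tg and WT voom with the block called 1 (Maf), and leaving out a library 0 to 0. At day 5 lin28Tg against WT called 2 with no filter (Ccr6, Il1r1) and 1 with voom and the block (Maf), lin28Tg against let-7Tg called 2 with no filter (Ccr6, Il1r1), and leaving out a library gave 0 to 1 for the latter and 0 to 0 for the other comparisons. Against naive cells WT at 12 h called 2 with 1 FPKM and 2 with only the compared groups in the fit, and 1 to 5 without 1 library. WT at day 5 called 3 with 1 FPKM, 3 with the replicate block and 1 with only the compared groups, and 2 to 4 without 1 library. Day 5 lin28Tg, Il17a and Zbtb16 counted, called 7 to 9 without 1 library and 6 with voom and the block. Let-7Tg at 12 h called 1 with 1 FPKM, with no filter, with voom and the block and with only the compared groups, and 0 to 2 without 1 library. Let-7Tg at day 5 called 4 with 0.1 FPKM, 1 with 1 FPKM, 1 with no filter, 5 with voom, 4 with voom and the block, 1 with only the compared groups and 1 to 3 without 1 library. The lin28Tg interaction called 0 by voom, with or without the block. There, Il23r turned to 1.56 and 1.72, and Il1r1 to 0.076 and 0.141. Without 1 library the lin28Tg difference from WT ran from -0.10 to 0.39 for naive Sox13, below 0 without WT replicate 2 (-0.10) or lin28Tg replicate 3 (-0.02), and from -0.30 to 0.45 for Il17f at day 5, below 0 without WT (-0.17) or lin28Tg (-0.30) replicate 1. The causes were not tested. For single members, 521 of the values under settings planned at the start kept direction and side of the threshold, 54 lost the call and 4 gained it, and of those added later 71, 13 and 4. Levels under about 0.3 FPKM rest on few reads, and there fold changes are limited by depth.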
